A study of Homo sapiens with 6 samples.

Results

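The growth factor receptor kinases examined here are 10 receptor tyrosine kinase genes taken as a fixed list, FGFR1, FGFR2, FGFR3, FGFR4, PDGFRA, PDGFRB, EGFR, ERBB2, MET and AXL. All 10 were found among the 23278 rows of the expression table. They were followed in FT282 cells, an immortalised secretory epithelial line of the human fallopian tube that was used as a clonal derivative. In 1 group the cells stably carried an empty vector (EV), and in the other they stably expressed BORIS, which is encoded by the germ-line gene CTCFL and resembles the insulator protein CTCF. Each of the 6 samples was the only one of its kind. RNA was sequenced in EV cells and in BORIS cells, CTCF was immunoprecipitated from both cell populations and BORIS from BORIS cells, and an input of EV cells was not analysed here. None of the values carries an error between replicates, and no difference was tested. The RNA libraries were made with either of a pair of kits, and which library had which kit is not given, so a difference of kit and a difference of cells cannot be told apart.

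Receptor tyrosine kinases sit in the cell membrane, bind a secreted growth factor outside the cell and pair up, and then phosphorylate each other on tyrosines inside the cell. Adaptor proteins dock on these tyrosines and start the RAS and ERK, the phosphoinositide 3-kinase and the phospholipase C pathways, which drive growth, survival and movement. In epithelia EGFR, ERBB2, MET and the FGF receptors are the usual growth factor receptors, whereas the PDGF receptors are typical of mesenchymal cells. AXL is common in cells with mesenchymal features.

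CTCFL measured 0.00532 FPKM without BORIS and 53.3 FPKM with it, in the direction of the labels, and CTCF measured 21.1 and 20.8 FPKM. CTCFL carries no mark of significance in the authors' deposited table despite this difference, so a missing mark there does not mean equal levels. FPKM is a level per transcript length that is scaled to the size of the library, so genes can be set beside each other on it. Of the tubal epithelium markers, PAX8 stood at 71.3 and 72.5 FPKM and KRT7 at 1055 and 885 FPKM, while EPCAM, at 0.732 and 0.574 FPKM, and OVGP1, at 0.0951 and 0.120 FPKM, were low in both libraries. KRT8, at 299.7 and 254 FPKM, and KRT18, at 258 and 230.2 FPKM, had no usable estimate for the authors' test. Of the 9 markers 3 carry a mark as lower in the authors' deposited table, CDH1 at 0.809 and 0.448 FPKM, MUC1 at 1.45 and 0.850 FPKM and MUC16 at 1.04 and 0.627 FPKM, and 0 as higher. The 5 leukocyte markers summed to 3.78 and 4.51 FPKM, with CD3E listed at 0 in both. CD68 measured 1.48 FPKM without BORIS and 2.26 FPKM with it and carries a mark as higher in the authors' deposited table, and CD14 measured 2.25 and 2.21 FPKM without a mark. The 4 ciliated cell markers summed to 1.74 and 1.46 FPKM, with FOXJ1 and TEKT1 listed at 0 in both and CAPS at 1.47 and 1.11 FPKM. The 5 endothelial markers summed to 36.3 and 31.3 FPKM, nearly all of it CDH5 at 35.2 and 30.2 FPKM, and 0 carry a mark. VWF stood at 1.07 and 1.13 FPKM, PECAM1 at 0.00815 and 0.0134 FPKM, and EMCN was listed at 0 in both. The part of these markers in the receptor differences was not tested.

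FGFR4 was the receptor with the largest ratio, measuring 0.447 FPKM without BORIS and 2.56 FPKM with it, a 5.73-fold higher level with BORIS. FGFR1 was also higher with BORIS. FGFR2, PDGFRB and AXL were lower, and EGFR, ERBB2, MET and FGFR3 lay within a log2 ratio of 0.2 of equality on the side of a lower level. The receptors kept their places at the top of the order in both libraries, with AXL first, then MET, EGFR, ERBB2 and FGFR1. Below them the order differed, and FGFR4 stood ninth of the 10 in EV cells and sixth in BORIS cells.

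Differences are given as log2((BORIS + 1)/(EV + 1)), with 1 FPKM added to each value. The rule of size called a gene higher or lower at a ratio of 1 or more in size, given 1 FPKM in either library. By this rule 1 of the 10 receptors, FGFR4, was higher and 0 were lower, against 1.45% and 0.936% of 12496 genes with 1 FPKM. These shares stand for 181 and 117 genes, of which 54 and 18 were left without small RNA genes and genes lacking a usable estimate. The authors' deposited table marked 2 receptors as higher, FGFR4 and FGFR1, and 3 as lower, FGFR2, PDGFRB and AXL. It marked 5.81% of the 13297 genes usable for its test as higher and 6.64% as lower, and 9 of the 10 receptors were usable. That test had 1 library per group to draw on, so its marks and q-values hold no variation between replicate cultures. Of the 9 receptors with 1 FPKM in either library, 7 lay below a ratio of 0, against 50.1% of all genes with 1 FPKM, and their median was -0.17 against 0.00.

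**Figure D1:**
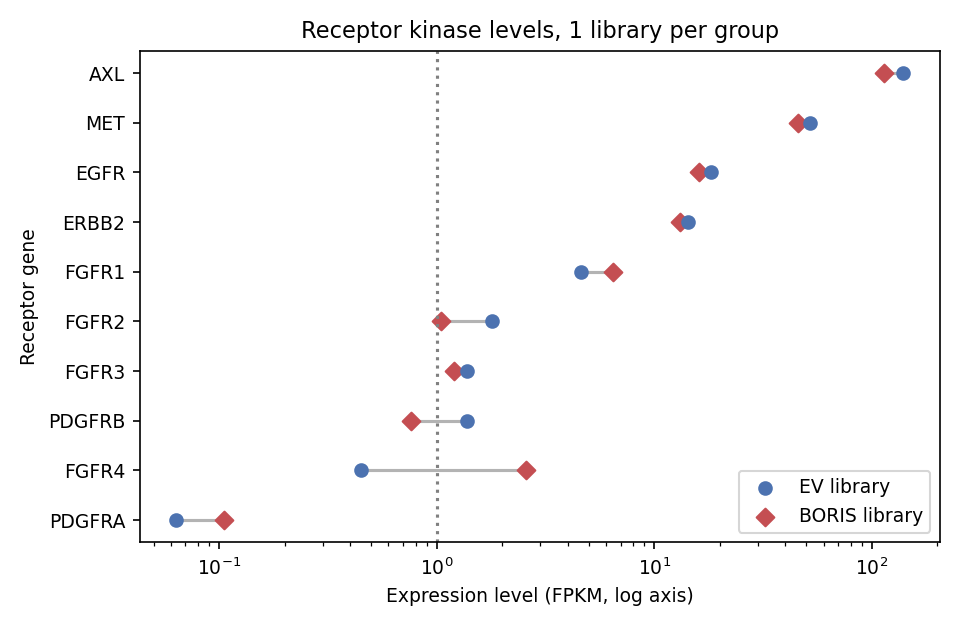
Level of each receptor gene in FPKM on a log axis, as a circle for the EV library and a diamond for the BORIS library, with a dotted line at 1 FPKM. The pair is farthest apart for FGFR4, at 0.447 and 2.56 FPKM, and AXL lies highest in both libraries at 139.7 and 114 FPKM.

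The FGF receptors bind fibroblast growth factors together with heparan sulfate or a Klotho co-receptor. FGFR4 is best known as the liver receptor for FGF19. The FGFR4 gene spans chromosome 5 from 176513920 to 176525126 (hg19). Its log2 ratio of 1.30 ranked 138 of 12496 genes from the highest, and 23 when small RNA genes and genes without a usable estimate were set aside. Without a pseudocount the ratio was 2.52. The authors' deposited table gives it a q-value of 8.17e-04, the lowest in that table and shared by 814 rows. FGFR4 did not pass the rule with a pseudocount of 5 FPKM, where its ratio was 0.47, or with a minimum of 5 FPKM, which it did not reach.

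The FGFR4 locus held 3 peaks within 10 kb of its span, 1 from each list, and all lay at the start of the gene. CTCF was called in EV cells at chr5:176513950-176514258 and in BORIS cells at chr5:176513918-176514270. BORIS was called at chr5:176513955-176514269, with its centre 192 bp inside the start. The CTCF site was thus already called in the cells without BORIS. Scores have no stated unit and rank peaks only within a list, here in 10 equal parts from the lowest to the highest. The CTCF peaks lay in part 5 of both lists. The BORIS peak lay in part 9, and its score of 594 was the highest of the 22 BORIS peaks over the receptor loci. Of 3023 genes with 1 FPKM and, at most 1 kb from an end, a BORIS peak on CTCF of both cell populations, 53 (1.75%) were higher by the rule and 22 (0.728%) lower. Among genes without BORIS at either end the shares were 1.48% and 1.40%. All these shares include small RNA genes and genes without a usable estimate.

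BORIS was called at the starts of FGFR4, MET and EGFR, which are shown, and of FGFR2, PDGFRA and ERBB2, which are not. Of the starts shown, CTCF was called too at FGFR4 and MET, but not at EGFR. Their levels also differed in direction, though MET and EGFR were only slightly lower and carry no mark in the authors' deposited table. Each sequence is the RefSeq promoter (GRCh38.p14, plus strand) from 250 bases before to 50 after the outermost listed start, at chr5:177086665-177086964, chr7:116671946-116672245 and chr7:55018767-55019066.
FGFR4: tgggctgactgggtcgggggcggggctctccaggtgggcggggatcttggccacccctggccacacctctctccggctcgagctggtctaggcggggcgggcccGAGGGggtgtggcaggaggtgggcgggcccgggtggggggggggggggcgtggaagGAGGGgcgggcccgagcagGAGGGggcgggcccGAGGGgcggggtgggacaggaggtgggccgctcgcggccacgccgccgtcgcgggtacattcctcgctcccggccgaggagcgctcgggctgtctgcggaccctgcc
MET: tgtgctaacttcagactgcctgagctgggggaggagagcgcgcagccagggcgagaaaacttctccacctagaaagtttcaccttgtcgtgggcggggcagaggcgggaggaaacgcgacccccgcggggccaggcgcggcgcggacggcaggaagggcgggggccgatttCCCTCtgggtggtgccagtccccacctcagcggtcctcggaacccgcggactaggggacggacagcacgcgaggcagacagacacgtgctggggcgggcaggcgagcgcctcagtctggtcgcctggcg
EGFR: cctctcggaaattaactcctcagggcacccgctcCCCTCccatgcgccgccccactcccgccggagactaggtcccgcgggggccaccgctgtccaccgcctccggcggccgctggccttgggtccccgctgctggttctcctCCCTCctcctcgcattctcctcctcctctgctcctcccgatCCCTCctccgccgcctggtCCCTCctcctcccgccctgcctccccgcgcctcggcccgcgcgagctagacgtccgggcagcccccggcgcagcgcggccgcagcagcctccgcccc
Capitals mark CCCTC, the short core after which CTCF is named, searched on both strands, so that GAGGG is the same core read from the other strand. FGFR4 and EGFR held 4 copies each and MET held 1, and at least 1 copy stood in 71.2% of 35114 RefSeq promoters of this length. The GC box GGGCGG, searched on both strands as well, overlaps some of these copies at FGFR4. It stood 7 times at FGFR4 and 3 times each at MET and EGFR, and at least once in 45.0% of promoters. Of the starts not shown, FGFR2 held 2 copies of CCCTC and 5 GC boxes, PDGFRA 1 and 0, and ERBB2 0 of both. A match of letters is a description and not a bound site. The FGFR4 and MET windows held 30 CG pairs each and the EGFR window 33, against a median of 14. The windows not shown held 52 at FGFR2, 8 at PDGFRA and 24 at ERBB2. The FGFR4 peaks reach about 350 bp past the start in hg19, so that most of their length lies beyond the printed window if both builds place the start alike, which was not checked. On the same terms most of the BORIS peaks at EGFR, from -154 to 1668 bp, and MET, from -632 to 148 bp, lies outside their windows. The printed sequences are thus not the sequences under the peaks.

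FGFR1, the main mesenchymal FGF receptor, measured 4.63 FPKM without BORIS and 6.43 FPKM with it. It was 1.39-fold higher, with a log2 ratio of 0.40, and the authors' deposited table gives a q-value of 8.17e-04. Ratios at least as large in size were seen in 7.78% of genes with 1 FPKM. FGFR2 stood at 1.79 and 1.05 FPKM, 1.70-fold lower in BORIS cells, with a ratio of -0.44 and the same q-value in the authors' deposited table. FGFR3 stood at 1.38 and 1.20 FPKM and was not marked in the authors' deposited table, where its q-value is 0.357. Summed, the 4 genes measured 8.24 FPKM without BORIS and 11.2 FPKM with it. FGFR4 made up 5.43% of that sum in EV cells and 22.8% in BORIS cells, FGFR2 21.7% and 9.36%, and FGFR1 56.2% and 57.2%. Without FGFR4 the sums were 7.79 and 8.69 FPKM.

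**Figure D2:**
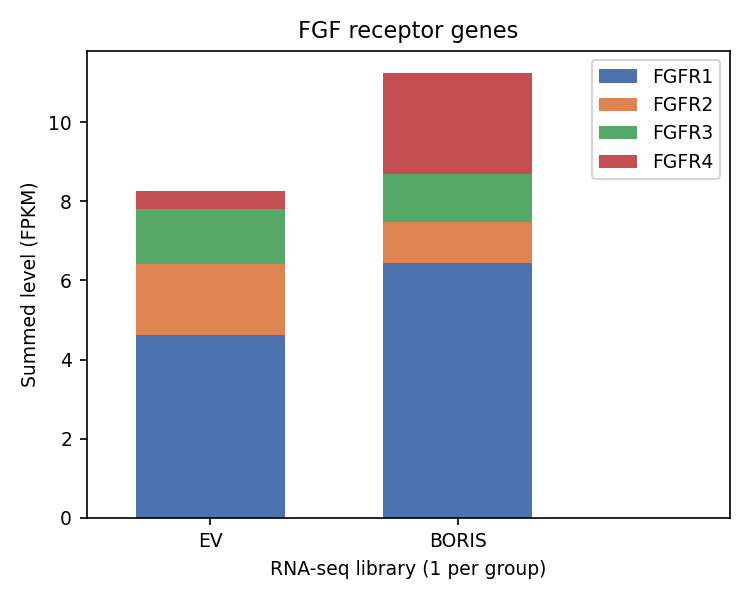
Summed level of the 4 FGF receptor genes in FPKM, stacked by gene, in the EV and the BORIS library. The FGFR4 share goes from 5.43% to 22.8%, and FGFR1 is the largest part of both bars.

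The other FGF receptor loci had more peaks. At FGFR1, on chromosome 8 from 38268655 to 38326352, 6 CTCF peaks in EV cells, 6 in BORIS cells and 4 BORIS peaks were called. The strongest CTCF peak lay at the end with the lower coordinate, in part 10 of both lists, at chr8:38268084-38268702 in EV cells. At the end with the higher coordinate a wide BORIS peak at chr8:38324554-38326464 covered CTCF peaks of part 1. Among these was a CTCF peak at chr8:38325197-38325347 that was called in EV cells alone. A further BORIS peak beside it, at chr8:38323365-38324395, overlapped CTCF in neither cell population.

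FGFR2 reads along the minus strand of chromosome 10 from 123357972 to 123237843. Just inside its start CTCF was called in EV cells in part 3 and in BORIS cells in part 4, with a BORIS peak on it at chr10:123356729-123357055, centred 1080 bp from the start. A second BORIS peak at chr10:123357252-123357994 covered the start itself and overlapped no CTCF peak. FGFR3, on chromosome 4 from 1795038 to 1810599, had no peak inside its span. Its peaks lay past its stop end, where CTCF of both cell populations and BORIS met, the BORIS peak centred 1198 bp from an end of LETM1, and a second BORIS peak without CTCF stood at chr4:1815731-1816010.

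The PDGF receptors bind platelet-derived growth factors and mark fibroblasts, pericytes and smooth muscle. PDGFRB measured 1.38 FPKM without BORIS and 0.763 FPKM with it. It was 1.81-fold lower with BORIS, with a ratio of -0.43, and the authors' deposited table gives a q-value of 8.17e-04. PDGFRA stood at 0.0634 and 0.105 FPKM, too low for the authors' test, and received no mark. Both genes were thus low in both libraries, and PDGFRB crossed below 1 FPKM. Other mesenchymal genes differed beside them. The 4 smooth muscle markers summed to 704 FPKM without BORIS and 296 FPKM with it, nearly all of it ACTA2, and ACTA2 and LMOD1, the latter at 5.80 and 2.77 FPKM, carry a mark as lower in the authors' deposited table, with MYH11 at 0.250 and 0.268 FPKM and DES at 0.0779 and 0.156 FPKM. The 7 fibroblast markers summed to 709.9 and 615 FPKM, most of it THY1 at 512 and 436 FPKM. COL1A1 alone was marked lower, at 64.8 and 46.5 FPKM, POSTN stood higher at 72.5 and 79.9 FPKM without a mark, and DCN was listed at 0 in EV cells. The 3 pericyte markers summed to 59.1 and 48.6 FPKM, with CSPG4 and MCAM marked lower in the authors' deposited table and RGS5 at 1.95 and 2.02 FPKM without a mark. Their part in the PDGFRB difference was not tested. In RNA pooled from many cells of a clonal line, a large difference in some cells and a small difference in all cells cannot be told apart.

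Inside PDGFRB, which reads along the minus strand of chromosome 5 from 149535422 to 149493401, a CTCF peak of part 10 stood in both cell populations at chr5:149509466-149509967 in EV cells, without BORIS. CTCF and a weak BORIS peak, with a score of 96 in part 1, met before its start, the BORIS peak centred 5940 bp away. A CTCF peak of part 1 at chr5:149501753-149502003 was called in BORIS cells alone. No peak lay within 1 kb of either end. PDGFRA, on chromosome 4 from 55095263 to 55164412, had the lowest level of the 10, and its peaks lay between positions -1237 and 6066 bp from its start, counted along the gene. All 4 of its CTCF places were called in both cell populations, among them part 10 peaks at chr4:55100259-55100834 in EV cells and chr4:55100252-55100835 in BORIS cells, and BORIS was called at 3 of them.

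EGFR binds EGF, TGFA and related ligands, and ERBB2 has no ligand of its own and pairs with the other ERBB receptors. EGFR measured 18.3 FPKM without BORIS and 16.1 FPKM with it, with a log2 ratio of -0.17. ERBB2 stood at 14.3 and 13.2 FPKM, with a ratio of -0.10. Neither was marked in the authors' deposited table, where the q-values are 0.243 and 0.617. Ratios at least as large in size were seen in 26.8% and 47.8% of genes with 1 FPKM. EGFR made up 56.2% of the sum of both in EV cells and 54.9% in BORIS cells.

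EGFR, on chromosome 7 from 55086724 to 55275031, is the longest of the loci at 188308 bp. A BORIS peak of 1823 bp at chr7:55086570-55088392 covered its start, in part 3 by score and without CTCF in either cell population. Of 4470 genes with such a BORIS peak at most 1 kb from an end, 47 (1.05%) were higher by the rule and 20 (0.447%) lower. Small RNA genes and genes without a usable estimate are included in these counts. Inside the span a BORIS peak at chr7:55201345-55201873, in part 8, overlapped a CTCF peak of part 1 that was called in BORIS cells alone, at chr7:55201363-55201558. This was the only place over the 10 loci where BORIS lay on a CTCF peak not called in EV cells. Another BORIS peak at chr7:55154148-55154616 overlapped no CTCF, and the only EGFR peak of CTCF called in both cell populations stood at chr7:55212082-55212394 in EV cells, in part 4.

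ERBB2, on chromosome 17 from 37844392 to 37884915, shares its span with the small RNA gene MIR4728. A BORIS peak without CTCF at chr17:37844089-37844462 covered the start of the span, 34 bp from an end of PGAP3, so that it lies at both genes. Within the span, CTCF of both cell populations and BORIS met at chr17:37874966-37875219, as given in EV cells. The last BORIS peak, in part 9 with a score of 524, lay with CTCF past the stop end of ERBB2 and 108 bp from an end of MIEN1.

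MET is the receptor of hepatocyte growth factor, and AXL is a receptor of GAS6. MET measured 51.9 FPKM without BORIS and 46.0 FPKM with it, with a ratio of -0.17 and a q-value of 0.269 in the authors' deposited table, without a mark. AXL stood at 139.7 and 114 FPKM, 1.22-fold lower in BORIS cells. Its ratio was -0.29, and the authors' deposited table marked it as lower with a q-value of 0.0155. AXL held the largest difference in FPKM of the 10, -25.5, and the largest part of their summed level, at 59.7% in EV cells and 56.6% in BORIS cells.

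MET, on chromosome 7 from 116312458 to 116438440, had CTCF before its start in EV cells at chr7:116311783-116312324, in part 5. In BORIS cells the place was called at chr7:116311770-116312458, in part 8 of that list, and BORIS at chr7:116311826-116312606 reached across the start. The other 2 CTCF places called in both cell populations, 1 of them 114528 bp from the start and the other past the stop end, carried no BORIS. A weak CTCF peak at chr7:116356830-116357076 was called in BORIS cells alone. AXL, on chromosome 19 from 41725107 to 41767671, had no peak at its start or inside its span. Its 2 CTCF places and 2 BORIS peaks lay past the stop end, the nearer BORIS peak at chr19:41768228-41768499 being 692 bp from the stop end of AXL and 26 bp from an end of HNRNPUL1.

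**Figure D3:**
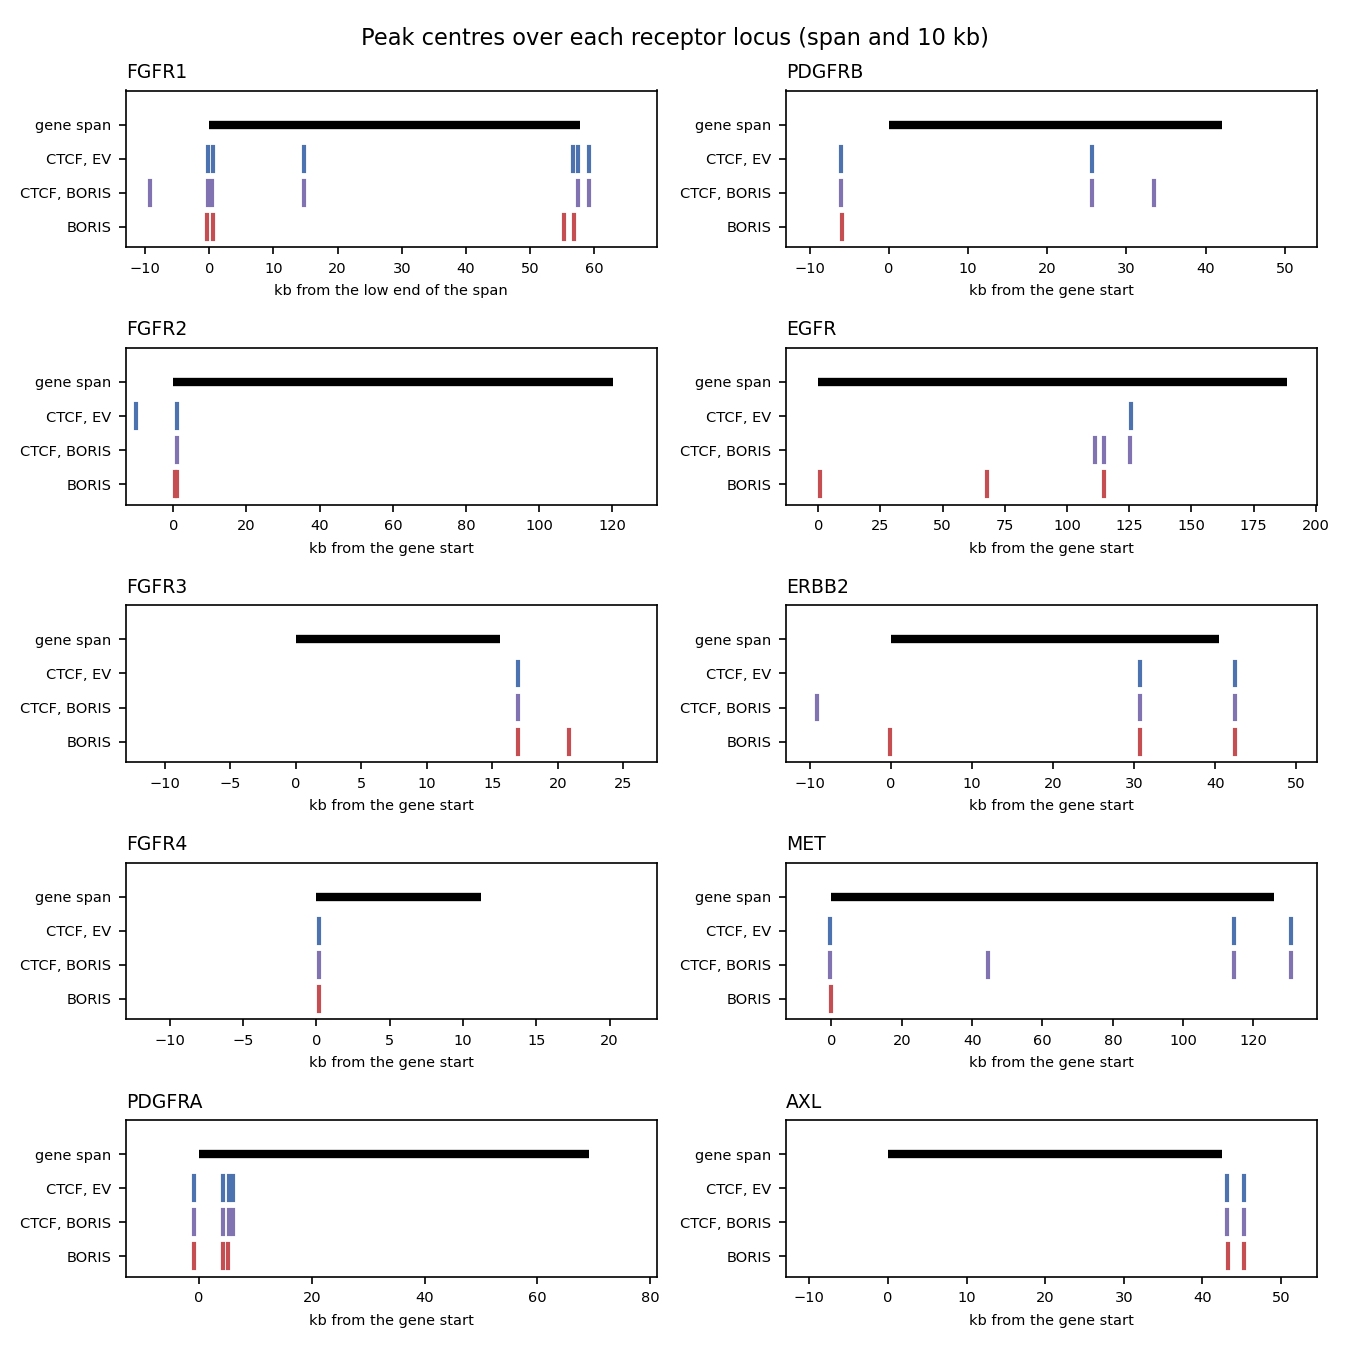
Peak centres over each receptor locus, drawn in kb from the gene start (FGFR1 from the end with the lower coordinate), with the gene span in black and 1 row per peak list. The 3 marks of FGFR4 lie together on its start, and those of AXL and FGFR3 lie past the end of the span.

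Over the 10 loci, 24 CTCF peaks of EV cells, 28 CTCF peaks of BORIS cells and 22 BORIS peaks were called. Every locus had at least 1 peak of each list within its span and 10 kb, against 80.9%, 82.9% and 82.6% of genes with 1 FPKM. Of the 28 CTCF peaks of BORIS cells, 22 were also called in EV cells, a share of 78.6% (95% interval 60.5 to 89.8), against 90.8% of the whole list. The 6 called in BORIS cells alone, at FGFR1, PDGFRB, EGFR, ERBB2 and MET, lay in parts 1 and 2 by score. In these parts 58.1% of the whole list was also called in EV cells, against 99.0% in the parts above. Of the 24 CTCF peaks of EV cells, 23 were also called in BORIS cells (95.8%, interval 79.8 to 99.3), against 94.2% of the whole list. The upstream FGFR2 peak among them met a CTCF peak of BORIS cells that lies just outside the 10 kb. A BORIS peak lay on 16 of the 28 CTCF peaks of BORIS cells (57.1%, interval 39.1 to 73.5), against 35.0% of the whole list.

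Of the 22 BORIS peaks, 16 overlapped a CTCF peak of BORIS cells, a share of 72.7% (interval 51.8 to 86.8), against 65.6% of the whole list. With an overlap of at least 50% of both peaks the share was 45.5%, 10 of 22. With the higher-scoring part of each list it was 45.5% too, 5 of 11. The share of the whole list was not computed at these settings, so 65.6% is no measure for them. The other 6, at FGFR1, FGFR2, FGFR3, EGFR and ERBB2, overlapped CTCF in neither cell population. A BORIS peak centre lay within 1 kb of an end in 8 of the 10 genes, against 57.9% of genes with 1 FPKM, and FGFR3 and PDGFRB had none. The number of genes with BORIS at an end was 5 when the peak had to cover the end and 3, namely FGFR1, FGFR4 and AXL, with the higher-scoring part of the list. The share of all genes was not computed at these settings. A CTCF peak centre lay within 1 kb of an end in 5 of the 10, FGFR1, FGFR4, PDGFRA, MET and AXL, in each cell population, against 30.7% of genes in EV cells and 34.3% in BORIS cells. Among the 9 genes with a listed strand, the BORIS peak lay at the start in FGFR2, FGFR4, PDGFRA, EGFR, ERBB2 and MET. Of these 6, FGFR4 stood higher with BORIS by the rule and the other 5 did not pass it in either direction. FGFR1, whose strand was not listed, had a BORIS peak centre within 1 kb of each end and did not pass the rule.

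The ligands of these receptors were a list of 32 genes, of which 13 had 1 FPKM, 6 above a ratio of 0 and 7 below, and their median was -0.04. By the rule of size 0 passed. The authors' deposited table marked 1 as higher, PROS1, and 5 as lower, EGF, FGF1, GAS6, PDGFA and PDGFB. GAS6, the AXL ligand, measured 182 FPKM without BORIS and 134 FPKM with it, so ligand and receptor were both lower. PROS1, protein S, which activates the AXL relatives TYRO3 and MERTK, stood at 1.14 and 2.50 FPKM. TYRO3 stood at 3.70 and 4.74 FPKM and MERTK at 0.165 and 0.785 FPKM. Both carry a mark as higher in the authors' deposited table.

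The PDGF receptor ligands PDGFB, at 30.4 and 22.0 FPKM, and PDGFA, at 10.9 and 8.95 FPKM, carry a mark as lower in the authors' deposited table, as PDGFRB does. PDGFC was at 52.3 and 53.1 FPKM. Among the FGF genes FGF18 stood at 47.1 and 52.1 FPKM, FGF2 at 15.7 and 14.4 FPKM, FGF5 at 4.55 and 4.88 FPKM, FGF9 at 2.22 and 2.12 FPKM and FGF20 at 1.25 and 1.68 FPKM. FGF1, which binds all FGF receptors, was marked lower at 0.946 and 0.492 FPKM. FGF19, a ligand of FGFR4 but not its only one, and HGF, the MET ligand, were listed at 0 in both libraries. The EGFR ligands HBEGF, at 37.7 and 39.4 FPKM, TGFA, at 24.7 and 21.1 FPKM, and EPGN, at 4.75 and 4.36 FPKM, were not marked in the authors' deposited table. EGF itself was marked lower at 0.549 and 0.284 FPKM.

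Set among 54 receptor tyrosine kinases, the 10 receptors held 45.9% of the summed level in EV cells and 44.0% in BORIS cells. AXL ranked 1, MET 3, EGFR 9 and ERBB2 10 in EV cells, with the ephrin receptor EPHA2 second at 79.3 and 71.7 FPKM. FGFR4 ranked 30 in EV cells and 20 in BORIS cells. Of the 44 other kinases 21 had 1 FPKM, 5 above a ratio of 0 and 16 below, with a median of -0.11, and 0 passed the rule of size. Of them 4 carry a mark as higher and 5 as lower in the authors' deposited table. ERBB3, which pairs with ERBB2, was higher at 0.823 and 1.39 FPKM. INSR, the insulin receptor, was lower at 2.22 and 0.989 FPKM, and FLT3, a receptor of blood progenitors, at 1.67 and 0.744 FPKM. The collagen receptor DDR1, at 22.6 and 17.7 FPKM, the stem cell factor receptor KIT, at 5.05 FPKM in EV cells and 0.792 times that level in BORIS cells, and ERBB4, at 2.14 and 1.64 FPKM, were the others marked lower in the authors' deposited table.

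Downstream of the receptors the levels were close to equal. Of the 30 signal transducers all had 1 FPKM, 14 lay above 0 and 16 below, and 0 carry a mark in the authors' deposited table. NCK1, an adaptor, stood at 21.6 and 25.1 FPKM, PTPN11, a phosphatase needed for RAS signalling, at 35.9 and 40.8 FPKM, and MAP2K1, the kinase above ERK, at 21.1 and 23.9 FPKM. PLCG1, a phospholipase that FGF receptors bind, stood at 17.2 and 14.8 FPKM and the FGF receptor adaptor FRS3 at 1.46 and 1.21 FPKM.

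The feedback inhibitors had 19 of 20 genes with 1 FPKM, 7 above 0 and 12 below, and their median was -0.07. Marks in the authors' deposited table went to DUSP5, an ERK phosphatase, as higher at 0.569 and 0.864 FPKM, and PTPRJ, a receptor phosphatase, as lower at 28.3 and 21.7 FPKM. DUSP6, which follows FGF signalling in many tissues, was at 7.80 and 7.40 FPKM and not marked. SPRY1 was at 1.85 and 2.32 FPKM, LRIG1 at 7.57 and 8.75 FPKM and SPRED3 at 1.05 and 0.722 FPKM, all unmarked.

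ERK-responsive genes had 13 of 19 members with 1 FPKM, 4 above 0 and 9 below, with a median of -0.04. ETV4 and ETV5, which follow FGF signalling, measured 4.13 and 3.60 FPKM without BORIS and 3.87 and 3.15 FPKM with it, and carry no mark. Their relative ETV1 went the other way, at 0.0240 FPKM without BORIS and 0.378 FPKM with it. It stayed below 1 FPKM in both libraries and carries no mark. PHLDA1 carries a mark as higher in the authors' deposited table, measuring 3.40 and 5.68 FPKM, and CCND1, cyclin D1, was marked lower at 108 and 79.0 FPKM. PLAUR, the urokinase receptor, stood at 25.5 and 28.9 FPKM and FOSL1 at 10.5 and 9.18 FPKM. No gene of these 3 downstream lists passed the rule of size.

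**Figure D4:**
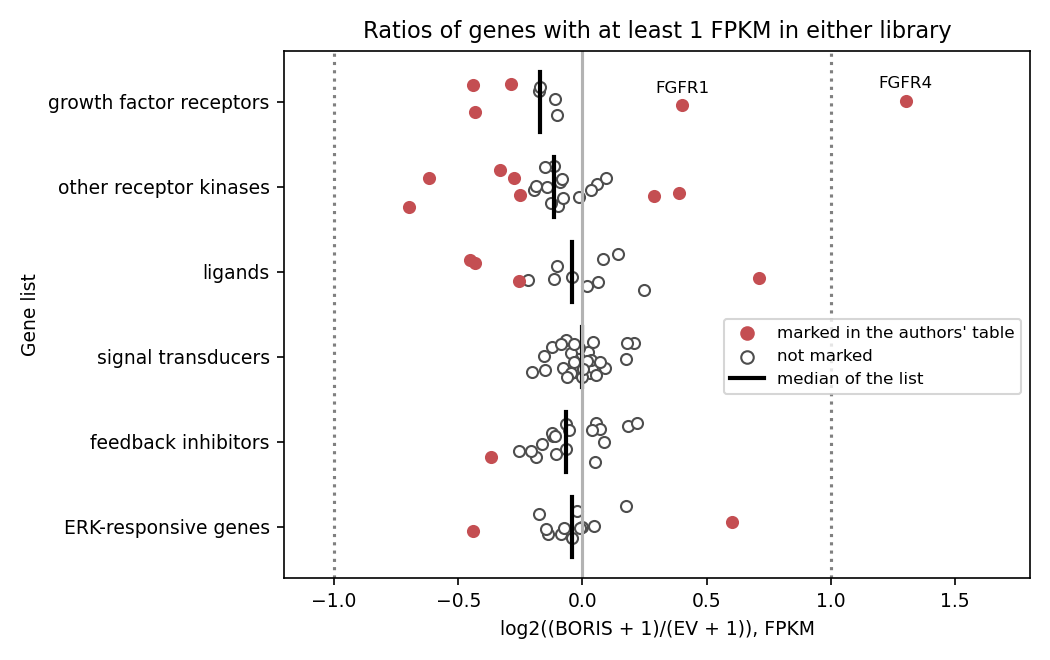
Log2 ratio of BORIS to EV cells with 1 FPKM added, for each gene of 6 lists with 1 FPKM in either library. Filled points carry a mark in the authors' deposited table, black bars are medians, and dotted lines stand at -1 and 1. FGFR4 at 1.30 is the point beyond a dotted line.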

How the data were processed

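The authors' deposited expression table gives FPKM values, fragments per kilobase of transcript scaled to library size, for EV and BORIS cells. It also holds p-values, q-values and marks of significance from the authors' own test. The submitters' processing notes name Bowtie, TopHat2 and Cufflinks 2.0.0 with no roles, and the genome build hg19. The authors' deposited peak lists give a start, an end, a score without a stated unit and a position inside each peak. How peaks were called, at which threshold and whether against the input is not given in the sources used here. Read depth is unknown: at a tolerance of 0.5%, at most 10.3% of 1180 low FPKM ratios fell on common steps of whole reads.

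The log2 ratio was computed from FPKM plus a pseudocount of 1, which understates differences of low genes. A gene counted as higher or lower at a ratio of at least 1 in size with 1 FPKM in either library. With 1 library per group no test was made. This rule and the overlap search were tested on simulated data. Peaks were joined to gene spans of the expression table and 10 kb on each side, and shared peaks overlapped by 1 bp or more. Peak coordinates are printed 1-based, and gene spans as the table gives them. Small RNA genes were recognised by their names, among them microRNA, small nucleolar, small Cajal body, vault and Y RNA genes. Shares of peaks carry 95% Wilson intervals, which cover counting error only. Strand and promoter sequences came from RefSeq tables of GRCh38.p14, in which 9 of the 10 receptors had a row, and no coordinates were converted between builds. Exons, introns and UTRs were not assigned. The 10 receptors and all gene lists were chosen with earlier results of these data known. All receptors are named, as are the 2 highest and 2 lowest genes of each further list with 1 FPKM. The ligands with 1 FPKM or a mark, the other marked receptor kinases and the marker genes were named after their values were seen. So were MAP2K1, DUSP5, DUSP6, ETV1, ETV4, ETV5, LETM2 and TACC3. Alternatives covered pseudocounts, scaling, minimum, ratio, overlap, distance and peak score. Python 3.11.15, pandas 2.3.3, numpy 2.4.6 and scipy 1.17.1 were used.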

Additional observations from a re-analysis of the deposited data

How the results depend on the processing

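Each group held 1 library, so no replicate could be left out. No paired analysis was possible because each group held 1 library. The ratios of the 10 receptors were computed again with pseudocounts of 0.1 and 5 FPKM. They were also computed with upper quartile scaling, which shifted all ratios by at most 0.009 on the log2 scale. A pseudocount cannot change the sign of a ratio, and this scaling was too small to change it for any receptor. Kept signs are therefore no check of the result. Of the 30 values computed again, 22 lay within 0.1 of the reported ratio and 8 moved further. FGFR4 stood at 2.28 with a pseudocount of 0.1 FPKM. The number of receptors past the rule of size went from 1 to 0 with a pseudocount of 5 FPKM or a minimum of 5 FPKM. With a ratio of at least 0.5, 403 genes were higher and 291 lower. Among genes with usable estimates other than small RNA genes, a setting chosen after seeing the data, 54 were higher and 18 lower at a ratio of at least 1, against 181 and 117. The share of CTCF peaks also called in EV cells was 91.7% in the higher-scoring part of each list. The share of BORIS peaks with CTCF was 45.5% with an overlap of at least 50% of both peaks and 45.5% in the higher-scoring part. The number of receptors with a BORIS peak at an end was 5 when the peak had to cover the end and 3 in the higher-scoring part. For these peak settings no share over the whole lists or over all genes was computed. The cause of the shifts between settings was not tested. Read depth, unknown here, limits all low values, FGFR4 and PDGFRA among them.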

Other observations

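Of the other receptor kinases that stayed below 1 FPKM in both libraries, and therefore outside the rule of size, NTRK2 and MERTK carry a mark as higher in the authors' deposited table. These kinases were singled out after their values were seen. NTRK2, a receptor of brain-derived neurotrophic factor, measured 0.193 FPKM without BORIS and 0.975 FPKM with it, 5.04-fold higher. MERTK, which binds GAS6 and protein S, was 4.77-fold higher. Among unmarked kinases EPHB6 stood at 0.0240 and 0.141 FPKM, FLT4 at 0.0206 and 0.520 FPKM and ROR2 at 0.00445 and 0.358 FPKM, with folds above that of FGFR4 from levels near 0.

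Genes beside the receptors were examined up to 100 kb from each span. Of 23 such genes with 1 FPKM, small RNA genes left out, 0 passed the rule of size in either direction. Of all genes with 1 FPKM, small RNA genes included, 1.45% were higher and 0.936% lower. The authors' deposited table marked 2 of the neighbours, both as lower, against 5.81% of usable genes marked higher and 6.64% lower. These were LETM2 beside FGFR1, at 5.55 and 4.21 FPKM, and TACC3 near FGFR3, at 49.7 and 40.3 FPKM. Next to FGFR4, ZNF346 measured 5.85 FPKM without BORIS and 5.40 FPKM with it, the histone methyltransferase gene NSD1 at 17.4 and 16.0 FPKM, and UIMC1 at 14.1 and 14.9 FPKM. The FGFR4 difference was thus not seen at these neighbours.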
